A study of Mus musculus with 8 samples.

Results

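PRC1.6 is a variant of Polycomb repressive complex 1, and the transcripts of 10 of its subunits are described here across Ssrp1 knockout and Usp7 knockdown in mouse embryonic stem cells. The subunits were chosen by name: Pcgf6, Mga, L3mbtl2, E2f6, Max, Tfdp1, Rnf2, Rybp, Yaf2 and Wdr5. All 10 symbols matched an Ensembl gene, out of 54232 genes in each of the 2 deposited tables of raw read counts. The cells were E14 embryonic stem cells, strain 12910la in the labels, grown with serum and the cytokine LIF. There were 4 groups of 2 libraries of polyadenylated RNA: Ssrp1_KO cells, made by Cas9 targeting, with their Ssrp1_Control cells, and Usp7_KD cells, which received an shRNA in the pSuper puro vector, with their Usp7_Control cells. Knockdown cells were given 1000 ng of plasmid, with selection in 1 ug/ml puromycin beginning after 24 h and lasting 3 days. The labels do not say whether the Ssrp1_KO libraries come from 1 clone, nor what the Usp7_Control cells received. Total counts were 15879056 to 18361130 per library. The labels do not say that the 2 replicates of a group were independent cultures; the p-values refer to the spread of these libraries, which may be technical.

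PRC1 complexes place ubiquitin on histone H2A through the RING proteins Rnf2 and Ring1, and one of a set of Pcgf proteins decides which variant forms. PRC1.6 is the variant built on Pcgf6. It reaches DNA through 2 pairs of proteins: Mga with Max, which bind the E-box, and E2f6 with Tfdp1, which bind E2F sites. L3mbtl2 and Wdr5 belong to the assembly, and Rybp and Yaf2 are alternative partners of the RING protein. In embryonic stem cells the complex is known for keeping genes of germ cells and meiosis silent. Usp7 is a deubiquitinase that is also known as a partner of the related variant PRC1.1. Ssrp1 is a subunit of the histone chaperone FACT.

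Promoter windows are printed for E2f6, the subunit whose transcript changed, and for the 4 germline genes with the largest called change in Usp7_KD cells. They were taken from RefSeq (GRCm38.p6) and run 5′ to 3′ on the strand of the gene, from 250 bases before the annotated start to 50 bases after it. Capitals mark TCCCGC or its reverse complement GCGGGA, a core of the E2F site, and CACGTG, the E-box, which reads the same on both strands. The motifs can share an end base, and each was searched on its own.
E2f6 promoter, chr12:16810715-16811014, plus strand: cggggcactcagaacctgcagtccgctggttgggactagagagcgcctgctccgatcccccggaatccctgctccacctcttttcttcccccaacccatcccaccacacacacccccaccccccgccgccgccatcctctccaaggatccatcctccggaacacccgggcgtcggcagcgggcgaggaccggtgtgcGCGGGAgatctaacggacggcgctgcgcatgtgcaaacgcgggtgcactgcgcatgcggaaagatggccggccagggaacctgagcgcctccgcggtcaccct
Taf7l promoter, chrX:134476441-134476740, minus strand: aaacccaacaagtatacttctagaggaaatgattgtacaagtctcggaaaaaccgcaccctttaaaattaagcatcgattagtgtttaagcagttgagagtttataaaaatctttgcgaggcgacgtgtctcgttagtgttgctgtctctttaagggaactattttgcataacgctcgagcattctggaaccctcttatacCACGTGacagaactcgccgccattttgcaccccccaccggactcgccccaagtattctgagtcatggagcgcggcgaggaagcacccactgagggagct
Tex101 promoter, chr7:24672001-24672300, minus strand: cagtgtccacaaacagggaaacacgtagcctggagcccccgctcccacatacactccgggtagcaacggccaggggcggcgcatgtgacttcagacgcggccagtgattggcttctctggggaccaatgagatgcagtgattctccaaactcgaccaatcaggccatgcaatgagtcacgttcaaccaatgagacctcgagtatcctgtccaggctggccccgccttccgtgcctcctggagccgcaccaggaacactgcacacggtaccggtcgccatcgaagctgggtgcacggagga
Rad21l promoter, chr2:151668484-151668783, minus strand: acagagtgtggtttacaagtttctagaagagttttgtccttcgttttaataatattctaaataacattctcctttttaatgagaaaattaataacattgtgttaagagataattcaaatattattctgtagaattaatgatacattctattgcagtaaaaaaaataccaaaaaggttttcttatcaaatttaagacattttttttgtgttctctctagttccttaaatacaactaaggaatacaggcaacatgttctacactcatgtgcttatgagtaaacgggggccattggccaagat
Tdrd1 promoter, chr19:56825959-56826258, plus strand: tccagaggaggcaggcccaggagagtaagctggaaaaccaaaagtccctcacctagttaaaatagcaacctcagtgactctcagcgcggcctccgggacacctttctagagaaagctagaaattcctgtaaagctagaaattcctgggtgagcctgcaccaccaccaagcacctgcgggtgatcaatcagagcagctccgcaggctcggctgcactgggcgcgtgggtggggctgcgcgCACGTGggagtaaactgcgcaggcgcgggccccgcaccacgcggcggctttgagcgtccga
Relative to the annotated start, with negative positions before it, motifs began at -53 for the single match in E2f6 (GCGGGA), -49 for the E-box of Taf7l and -11 for the E-box of Tdrd1. The windows of Tex101 and Rad21l held neither motif. The annotated span of Tex101 (mm10) runs from 24668007 to 24676675. Its 5′ end lies outside the printed window and was not searched. Tdrd1 has 3 windows in the table, and the first is shown. Of 32851 windows in all, 20.0% held TCCCGC in either orientation, 7.15% held CACGTG and 1.99% held both. Of 39 windows of the germline genes listed below, 15 held TCCCGC, 15 held CACGTG and 8 held both, or 38.5%, 38.5% and 20.5%. Among the subunits' own 9 windows, 5 held TCCCGC and 2 held CACGTG, and Rybp and Yaf2 had no entry.

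The targeted genes differed in how far their transcripts followed the labels. Usp7, on chromosome 16, stood at 117 and 128 CPM (counts scaled to a common library size with TMM factors) in Usp7_KD libraries, against 386 and 381 CPM in Usp7_Control libraries. Its log2 change was -1.64 (SE 0.19, edgeR adjusted p = 0.0012), and -1.72 without Usp7_KD replicate 2, where it was not called (adjusted p = 0.13). Ssrp1, on chromosome 2, stood at 400 and 120 CPM in the libraries labelled Ssrp1_KO, against 423 and 460 CPM in Ssrp1_Control libraries. Replicate 1 of the knockout thus kept a transcript level near its controls, and the change of -0.77 (SE 0.45) did not pass the test (adjusted p = 0.41). It was -1.94 without Ssrp1_KO replicate 1 (adjusted p = 0.0021) and -0.15 without Ssrp1_KO replicate 2 (adjusted p = 0.9). The counts do not measure protein, so loss of the Ssrp1 protein in either knockout library was not tested. Every knockout direction below therefore refers to the libraries as labelled.

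Libraries also differed in composition. All 8 markers of embryonic stem cells, Pou5f1 and Nanog among them, were above 1 CPM in every library, and their sum was 6860 and 6610 CPM in the libraries labelled Ssrp1_KO, against 9120 and 6770 CPM in their controls. It was 4900 and 4610 CPM in Usp7_KD libraries, against 6220 and 5170 CPM in theirs. Log2 changes were positive for 3 of the 8 and negative for 5 in the knockout, and for 2 and 6 in the knockdown. edgeR called 0 of them in either experiment, and DESeq2 called 0 in the knockout and 1 in the knockdown. That 1 was Klf4, lower at 94.3 and 106 CPM in Usp7_KD libraries, against 160 and 173 CPM in Usp7_Control libraries. Nanog, unlike most of the 8, was higher, at 1170 and 1190 CPM in the libraries labelled Ssrp1_KO, against 899 and 757 CPM in Ssrp1_Control libraries. In Usp7_KD libraries Nanog had 575 and 523 CPM, against 485 and 422 CPM in Usp7_Control libraries. Mitochondrially encoded genes took 7.31% and 2.81% of counts in the libraries labelled Ssrp1_KO, against 0.732% and 0.776% in their controls. The 10% of genes with the lowest GC content had a median log2 change of 0.92 in the libraries labelled Ssrp1_KO and of 0.06 in Usp7_KD libraries. The 10% with the longest exons were higher in replicate 2 than in replicate 1 of both control groups, by a median log2 of 0.38 in Ssrp1_Control and 0.41 in Usp7_Control libraries.

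Subunit transcripts were present in all libraries, at levels per exon length that spanned more than an order of magnitude. In RPKM (CPM per kilobase of exon), Wdr5 was highest, at 96.8 and 78.3 in Ssrp1_Control and 96.6 and 76.9 in Usp7_Control libraries. Tfdp1 followed at 67.9 and 56.3 RPKM in Ssrp1_Control and 57.9 and 50.9 RPKM in Usp7_Control libraries. E2f6 and Yaf2 were lowest. E2f6 stood at 4.97 and 5.42 RPKM in Ssrp1_Control and 5.44 and 6.22 RPKM in Usp7_Control libraries, and Yaf2 at 4.10 and 3.96, and 3.43 and 3.70 RPKM. Between these lay Max, Rybp, L3mbtl2, Rnf2, Pcgf6 and Mga. Within Ssrp1_Control libraries the ranges of L3mbtl2 and Rybp overlapped, as did those of Rnf2 and Pcgf6. Within Usp7_Control libraries Rybp overlapped with Max, Max with L3mbtl2, and Mga with Pcgf6, so the order of these neighbours was not resolved. Yaf2 rested on 109 to 211 counts per library, the fewest of the 10, while Wdr5 had 4711 to 5898. In each library Rybp had more RPKM than its alternative partner Yaf2. In mm10, Pcgf6 lies at 47033617 to 47050906 on chromosome 19, Mga at 119897228 to 119969581 and Wdr5 at 27515157 to 27536535 on chromosome 2, L3mbtl2 at 81663889 to 81688315 and Yaf2 at 93284278 to 93336935 on chromosome 15. Max lies at 76937269 to 76962201 on chromosome 12, Tfdp1 at 13338751 to 13378448 on chromosome 8, Rnf2 at 151458004 to 151500955 on chromosome 1 and Rybp at 100228565 to 100287485 on chromosome 6. The spans of L3mbtl2 and Rnf2 overlap the oppositely transcribed genes Chadl (30 to 87 counts per library) and Trmt1l (521 to 831), and strand use in counting is not known. Levels are per culture, so fewer cells of a type and less RNA per cell cannot be told apart.

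**Figure D1:**
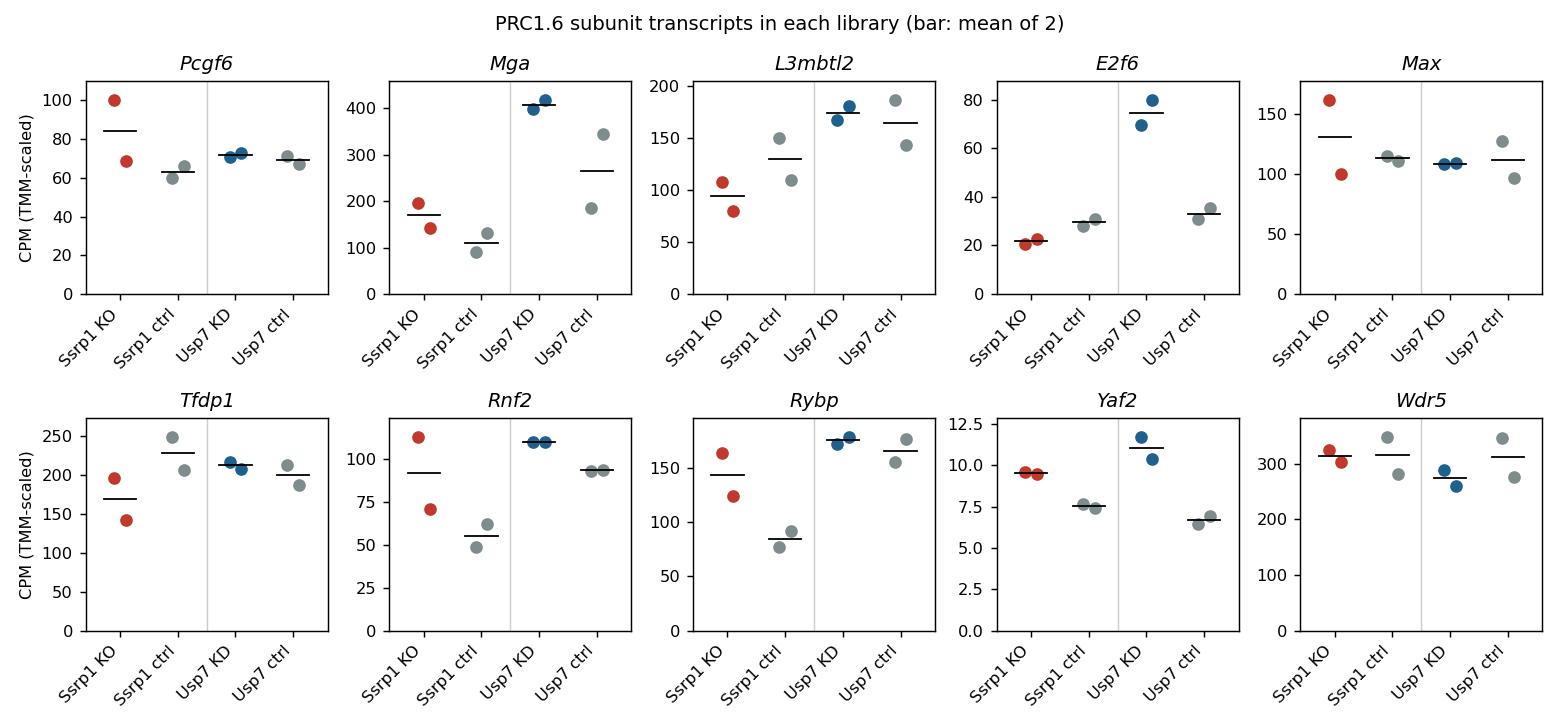
Transcript level of each PRC1.6 subunit in the 8 libraries. The vertical axis is CPM scaled by TMM factors and starts at 0, each point is a library, the bar is the mean of 2, and knockout or knockdown stands left of its controls. E2f6 stands at 69.7 and 79.7 CPM in Usp7_KD libraries and at 20.5 to 35.2 CPM in the other 6.

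E2f6 was the subunit that changed. This repressive E2F protein, on chromosome 12 (16810963 to 16839742, mm10), had 1258 and 1451 counts in Usp7_KD libraries, or 69.7 and 79.7 CPM, against 523 and 600 counts, or 30.8 and 35.2 CPM, in Usp7_Control libraries. Both knockdown libraries lay above both controls, with means of 74.7 ± 7.03 CPM in Usp7_KD and 33 ± 3.12 CPM in Usp7_Control libraries (SD, n = 2 each). It rose 2.26-fold, a log2 change of 1.18 (SE 0.19, 95% interval 0.75 to 1.6, edgeR adjusted p = 0.01). The call ended without Usp7_KD replicate 2 (log2 change 1.08, adjusted p = 0.38) and with no filter on low counts (1.17, adjusted p = 0.071), and it held under the other 9 alternatives. Levels of E2f6 in the libraries labelled Ssrp1_KO were 20.5 and 22.8 CPM, against 28.2 and 30.7 CPM in Ssrp1_Control libraries. Both libraries were thus below both controls there, and the log2 change of -0.44 (SE 0.31, interval -1.14 to 0.25) did not pass the test (adjusted p = 0.51). The table gives counts per gene, so isoforms of E2f6 are not told apart. No other annotated gene overlaps its span.

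The change of E2f6 differed between the experiments. In a joint fit of the 8 libraries, its change in the libraries labelled Ssrp1_KO minus its change in Usp7_KD libraries was -1.67 on the log2 scale (SE 0.31, interval -2.34 to -1.0, adjusted p = 0.031). None of the other 9 subunits passed this test, and theirs lay between -0.61 for L3mbtl2 (interval -1.39 to 0.18) and 0.63 for Rybp (interval -0.02 to 1.29). Of all 17052 genes tested 1.00% were called, 0.610% with a higher and 0.393% with a lower change in the knockout. The call for E2f6 ended when any 1 of the 4 Usp7 libraries or of the 2 Ssrp1_Control libraries was left out, with adjusted p-values of 0.058 to 0.27 and log2 differences of -1.6 to -1.79.

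Tfdp1 encodes DP1, the dimer partner of E2F proteins. It had 217 and 208 CPM in Usp7_KD libraries, against 213 and 187 CPM in Usp7_Control libraries, and the groups overlapped. Tfdp1 had 196 and 142 CPM in the libraries labelled Ssrp1_KO, against 249 and 207 CPM in Ssrp1_Control libraries, with no overlap. Its log2 changes were 0.09 (interval -0.31 to 0.50, adjusted p = 0.85) in the knockdown and -0.43 (interval -1.05 to 0.18, adjusted p = 0.46) in the knockout. Neither passed the edgeR test, so E2f6 and its partner were not called together in either experiment.

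Mga, a very large scaffold with its own DNA-binding domains, had 399 and 417 CPM in Usp7_KD libraries, against 185 and 345 CPM in Usp7_Control libraries. Both knockdown libraries were higher, but the controls differed from each other, and the log2 change of 0.62 (SE 0.27, interval 0.03 to 1.21) did not pass the test (adjusted p = 0.27). In a fit without Usp7_Control replicate 2, which called many more genes as given below, it did (1.13). Its exons are longer than those of 97.8% of the genes tested in both experiments, and the longest genes differed between the same controls in the same direction, as given above. With a correction for GC content and exon length its knockdown value was 0.37 (adjusted p = 0.31), and without Usp7_Control replicate 1 it was 0.25. Mga had 196 and 143 CPM in the libraries labelled Ssrp1_KO, against 89.5 and 132 CPM in Ssrp1_Control libraries, again without overlap and again below the threshold (log2 change 0.62, SE 0.30, adjusted p = 0.31). The corrected knockout value was 0.05. Mga also stood higher in the Usp7 libraries than in the Ssrp1 libraries in all but Usp7_Control replicate 1, a difference between experiments that was not tested.

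Max is the E-box partner of Mga and also of the Myc proteins. It had 108 and 109 CPM in Usp7_KD libraries, against 127 and 96.5 CPM in Usp7_Control libraries. Max had 161 and 100 CPM in the libraries labelled Ssrp1_KO, against 115 and 111 CPM in Ssrp1_Control libraries. Groups overlapped in both experiments, and the log2 changes were -0.04 (interval -0.47 to 0.39) and 0.21 (interval -0.44 to 0.86). Without Ssrp1_KO replicate 1 the knockout value was -0.23.

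Pcgf6, the subunit that defines the complex, was level in the knockdown. It had 70.7 and 72.7 CPM in Usp7_KD libraries, against 71.5 and 66.9 CPM in Usp7_Control libraries, a log2 change of 0.05 (interval -0.34 to 0.45, adjusted p = 0.92). In the libraries labelled Ssrp1_KO it had 100 and 68.8 CPM, against 60.1 and 66.0 CPM in Ssrp1_Control libraries. Replicate 1 was the high one, and the log2 change of 0.42 (interval -0.21 to 1.06) did not pass the test (adjusted p = 0.49). L3mbtl2, an MBT-domain protein that anchors the complex, had 167 and 181 CPM in Usp7_KD libraries, against 186 and 143 CPM in Usp7_Control libraries. L3mbtl2 had 108 and 79.5 CPM in the libraries labelled Ssrp1_KO, against 150 and 110 CPM in Ssrp1_Control libraries. The groups overlapped in the knockdown and not in the knockout, with log2 changes of 0.08 (adjusted p = 0.88) and -0.47 (interval -1.11 to 0.16, adjusted p = 0.43).

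Rnf2, the E3 ligase also called Ring1b, and its partner Rybp had the largest values in the knockout. Rnf2 had 113 and 71.1 CPM in the libraries labelled Ssrp1_KO, against 48.6 and 62.0 CPM in Ssrp1_Control libraries. Rybp had 163 and 124 CPM in the libraries labelled Ssrp1_KO, against 77.3 and 91.6 CPM in Ssrp1_Control libraries. Neither overlapped with its controls, and the log2 changes of 0.73 for Rnf2 (SE 0.31, unadjusted p = 0.037) and 0.76 for Rybp (SE 0.27, unadjusted p = 0.018) did not pass after adjustment in the edgeR test (0.24 and 0.16). Rnf2 and Rybp lie at the 4.82 and 17.8 percentiles of GC content among the genes tested in both experiments, and low-GC genes were higher in these libraries, as given above. With a correction for GC content and exon length, the knockout value of Rnf2 was -0.27 (adjusted p = 0.64), opposite in sign, and that of Rybp was 0.27 (adjusted p = 0.65). In the knockdown Rnf2 had 110 and 110 CPM in Usp7_KD libraries, against 93.3 and 93.8 CPM in Usp7_Control libraries, without overlap (log2 change 0.23, interval -0.16 to 0.62, adjusted p = 0.56). Rybp had 172 and 178 CPM in Usp7_KD libraries, against 155 and 176 CPM in Usp7_Control libraries (0.08, interval -0.32 to 0.48).

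Yaf2, the alternative to Rybp, had 11.7 and 10.4 CPM in Usp7_KD libraries, against 6.42 and 6.93 CPM in Usp7_Control libraries. The groups did not overlap, and the log2 change of 0.72 (SE 0.26, unadjusted p = 0.018) did not pass after adjustment in the edgeR test (0.19). Without Usp7_Control replicate 2 it was 0.77 and was called, in a fit that called many more genes, as given below. In the libraries labelled Ssrp1_KO, Yaf2 had 9.61 and 9.49 CPM, against 7.68 and 7.42 CPM in Ssrp1_Control libraries (log2 change 0.34, interval -0.61 to 1.29, adjusted p = 0.74). Wdr5, a WD40 protein shared with the MLL histone methyltransferases, had 288 and 260 CPM in Usp7_KD libraries, against 347 and 277 CPM in Usp7_Control libraries. Wdr5 had 324 and 303 CPM in the libraries labelled Ssrp1_KO, against 348 and 282 CPM in Ssrp1_Control libraries. Its groups overlapped in both experiments, with log2 changes of -0.19 (interval -0.63 to 0.25) and -0.01 (interval -0.60 to 0.59).

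In all, 1 of the 10 subunits was called in the knockdown, where 2.99% of all 15915 genes tested were called. In the knockout 0 of 10 were called by edgeR and 0 by DESeq2, where edgeR called 3.71% of 15757 genes. Of the calls over all genes 91.3% in the knockout, 79% in the knockdown and 60.8% of the differences were higher; with a correction for GC content and exon length these shares were 75.3%, 63.8% and 45.1%. An unadjusted p under 0.05 was reached by 3 subunits in the knockdown (16.7% of all genes) and by 2 in the knockout (18.2% of all genes). Libraries of the groups did not overlap for 4 subunits in the knockdown, E2f6, Mga, Rnf2 and Yaf2, all higher. Of all genes 48.0% did not overlap there, 24.6% above and 23.4% below their controls. They did not overlap for 8 in the knockout, of which 5 were above and 3 (L3mbtl2, E2f6 and Tfdp1) below, where 50.0% of all genes did not overlap, 27.3% above and 22.7% below. The median log2 change of the 10 was 0.09 in the knockdown and 0.27 in the knockout, against -0.02 and 0.03 over all genes tested.

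**Figure D2:**
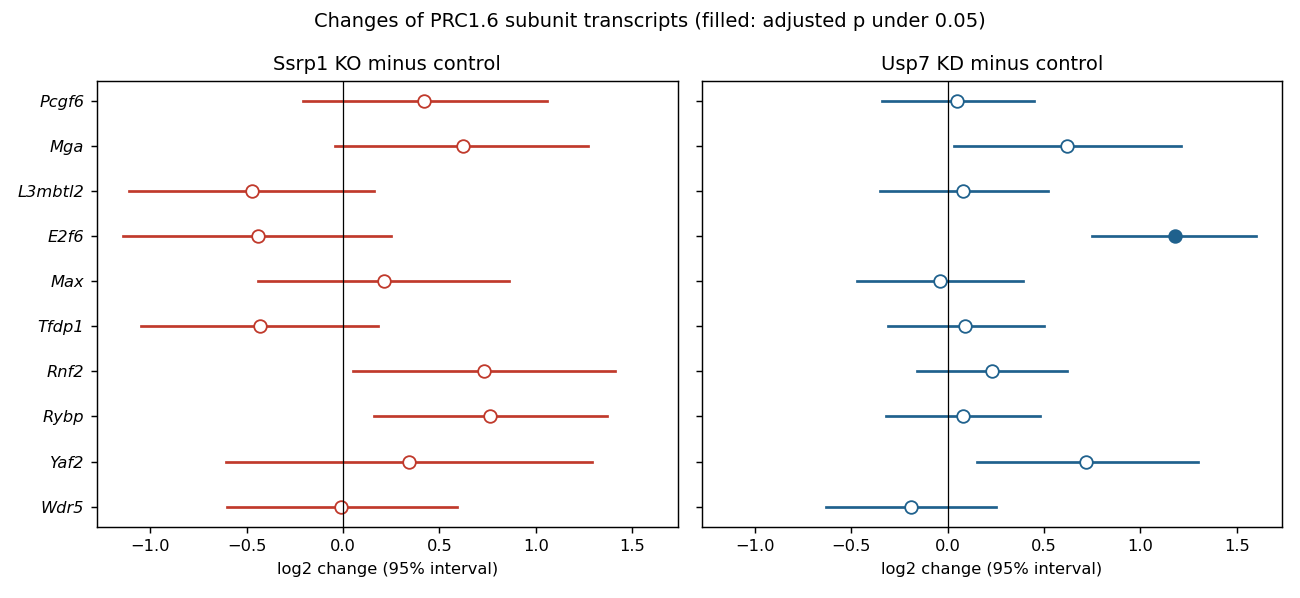
Log2 change of each PRC1.6 subunit with its 95% interval, in the libraries labelled Ssrp1_KO against their controls (left) and in Usp7_KD libraries against theirs (right). A filled point passed the edgeR test, which E2f6 in the knockdown did with 1.18 (0.75 to 1.6).

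**Figure D3:**
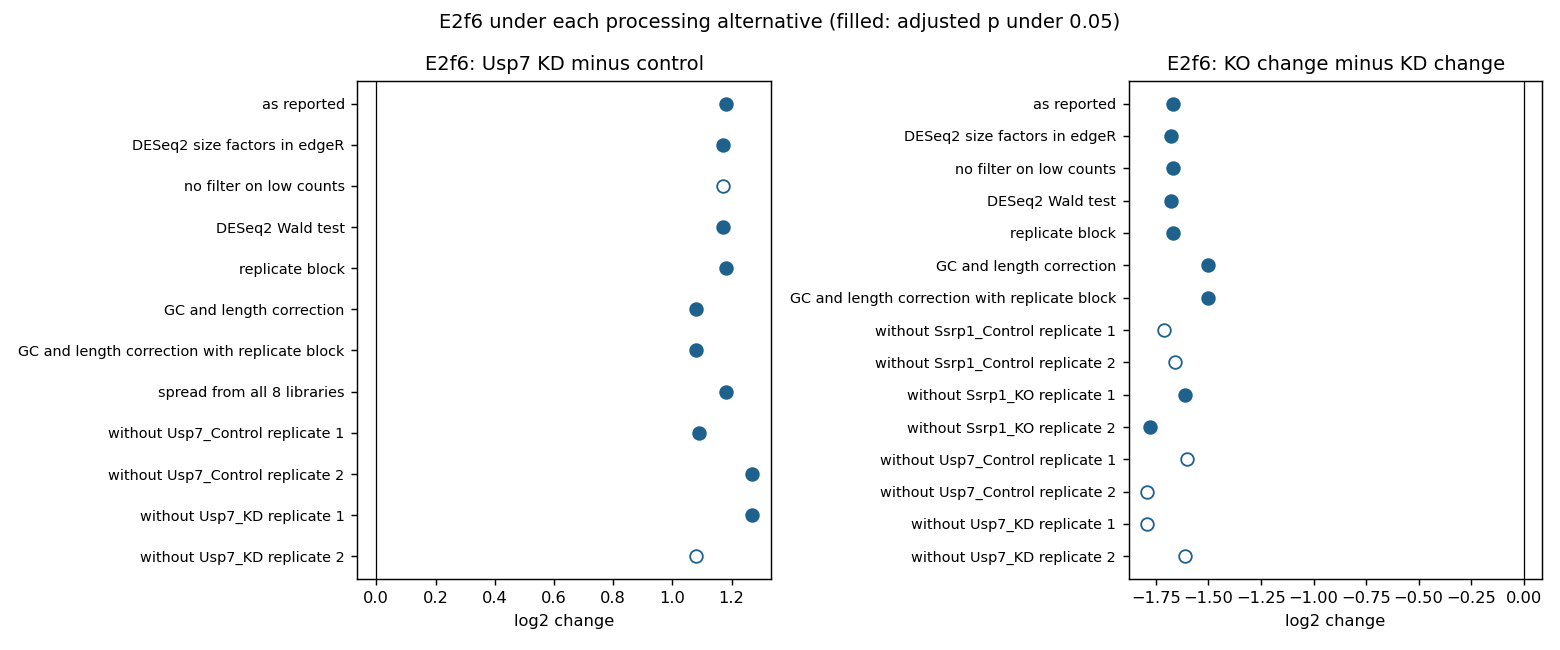
Log2 change of E2f6 in Usp7_KD libraries against their controls (left) and the knockout change minus the knockdown change (right), as reported and under each alternative. Filled points have an adjusted p under 0.05; the values run between 1.08 and 1.27 on the left and between -1.79 and -1.50 on the right.

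Further known subunits of PRC1.6 gave 0 calls of 6 in either experiment, by edgeR and by DESeq2. At an unadjusted p under 0.05 there was 1 in the knockout (18.2% of all genes) and there were 0 in the knockdown (16.7% of all genes). The 1 was Hdac2, a histone deacetylase, with 215 and 168 CPM in the libraries labelled Ssrp1_KO, against 97.0 and 120 CPM in Ssrp1_Control libraries (log2 change 0.82, SE 0.28, adjusted p = 0.13). With the GC and length correction it had 0.13 (adjusted p = 0.84). Its relative Hdac1 had -0.11 there and -0.08 in the knockdown. Ring1, the second RING protein, had 10.8 and 13.1 CPM in Usp7_KD libraries, against 18.6 and 12.8 CPM in Usp7_Control libraries (log2 change -0.40, adjusted p = 0.49). Without Usp7_Control replicate 2 Ring1 had -0.65 and was called lower, in a fit that called many more genes, as given below. Without Usp7_Control replicate 1 Ring1 had -0.10. The HP1 genes Cbx1 and Cbx3 had 0.43 and -0.28 in the knockout and -0.17 and -0.12 in the knockdown. With the GC and length correction Cbx3 had -1.35 in the knockout (adjusted p = 0.049). Tfdp2, the second dimer partner gene, had -0.07 in the knockout and -0.16 in the knockdown.

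Families that share these subunits held few calls. All 25 subunits of other PRC1 variants were tested in the knockdown and 1 rose by edgeR and by DESeq2, near the 2.99% of all genes called: Bmi1, also called Pcgf4, of canonical PRC1. Bmi1 had 18.2 and 17.5 CPM in Usp7_KD libraries, against 9.13 and 7.28 CPM in Usp7_Control libraries (log2 change 1.12, SE 0.24, adjusted p = 0.035), and it was not called without either Usp7_KD library (adjusted p = 0.19 and 0.48), with no filter (0.14) or with the spread from all 8 libraries (0.31). In the knockout 24 were tested and 1 rose by edgeR, near the 3.71% of all genes called: Skp1a, a subunit of PRC1.1 and of ubiquitin ligases, with 419 and 470 CPM in the libraries labelled Ssrp1_KO, against 187 and 186 CPM in Ssrp1_Control libraries (log2 change 1.26, adjusted p = 0.031). With the GC and length correction Skp1a had 0.78 (adjusted p = 0.16), and without Ssrp1_Control replicates 1 and 2 its adjusted p was 0.24 and 0.077. DESeq2 called Skp1a and also Bmi1, which had 9.01 and 4.72 CPM in the libraries labelled Ssrp1_KO, against 1.44 and 1.98 CPM in Ssrp1_Control libraries (log2 change 1.99, edgeR adjusted p = 0.092). Among 7 other E2F genes, 1 fell in the knockout by edgeR and by DESeq2, where 0.324% of all genes were called lower by edgeR: E2f8, an atypical repressor, with 12.8 and 12.3 CPM in the libraries labelled Ssrp1_KO, against 31.2 and 34.7 CPM in Ssrp1_Control libraries (log2 change -1.39, SE 0.33, adjusted p = 0.043). Without either Ssrp1_Control library, or with the GC and length correction, E2f8 was not called (adjusted p = 0.32, 0.17 and 0.051). In the knockdown 0 of these 7 were called by edgeR and 0 by DESeq2, with 1 at an unadjusted p under 0.05. The 11 Myc, Mxd and related genes of the Max network gave 0 edgeR calls in both experiments, and 0 in the knockout and 1 in the knockdown (Mxi1) by DESeq2, with 1 in the knockout and 2 in the knockdown at an unadjusted p under 0.05. The 9 MLL core partners of Wdr5 gave 0 calls by both tools, with 0 in the knockout and 2 in the knockdown at that unadjusted level. Of all genes tested, 18.2% in the knockout and 16.7% in the knockdown reached that level.

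Germline genes of the class that PRC1.6 is known to repress rose widely in the knockdown. The list was chosen with earlier results of these data known, so its counts here and below are not independent of them. It held 38 genes, of which 37 had an annotated symbol and 33 were tested. Of these 25 rose and 0 fell, where 2.36% of all genes were called higher, and the median log2 change was 2.73, against -0.02 over all genes tested. Genes that are low in controls could pass the filter mainly through the knockdown libraries, and Spo11, Asz1, Tktl2 and Dpep3 did not pass it. The count was 15 without Usp7_KD replicate 2, 17 with no filter and 16 with the spread taken from all 8 libraries.

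Taf7l, a germ cell paralogue of a TFIID subunit whose promoter holds an E-box, had 39.7 and 60.6 CPM in Usp7_KD libraries, against 0.589 and 0.763 CPM in Usp7_Control libraries. It rose 73.4-fold (log2 change 6.20, SE 0.34, adjusted p = 1.2e-05). Tex101, a germ cell surface protein gene, had 33.0 and 49.3 CPM in Usp7_KD libraries, against 0.943 and 0.763 CPM in Usp7_Control libraries, and rose 47.9-fold. Tdrd1, a Tudor protein of the piRNA pathway whose promoter also holds an E-box, had 54.3 and 68.2 CPM in Usp7_KD libraries, against 1.89 and 2.58 CPM in Usp7_Control libraries, and rose 27.3-fold (adjusted p = 1.2e-05). Rad21l, a meiotic cohesin subunit, had 13 and 30 counts in Usp7_KD libraries, against 0 and 1 in Usp7_Control libraries. The ratio of its normalised counts was 40.3, with an exact 95% binomial interval of 6.86 to 1630 that covers counting error only. Rad21l passed the filter only through the knockdown libraries, and its call ended with no filter, with the spread from all 8 libraries and without Usp7_Control replicate 1 (adjusted p = 0.13, 0.14 and 0.084). Each of these genes was higher in both knockdown libraries than in both controls.

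In the libraries labelled Ssrp1_KO, 35 of the list were tested, 8 rose and 0 fell, where 3.39% of all genes were called higher. The median log2 change was 1.35, against 0.03 over all genes tested. Genes that are low in these controls could pass the filter mainly through the knockout libraries, and Sycp2 passed it only through them. Dazl, a germ cell RNA-binding protein, had 52.8 and 55.5 CPM in the libraries labelled Ssrp1_KO, against 6.04 and 6.74 CPM in Ssrp1_Control libraries (log2 change 3.08, SE 0.33, adjusted p = 0.0049). In the knockdown Dazl had 94.4 and 117 CPM in Usp7_KD libraries, against 4.42 and 5.69 CPM in Usp7_Control libraries (log2 change 4.39, SE 0.24, adjusted p = 1.2e-05). Meioc, a regulator of meiotic entry, had 64.9 and 39.6 CPM in the libraries labelled Ssrp1_KO, against 6.50 and 11.7 CPM in Ssrp1_Control libraries (log2 change 2.52, adjusted p = 0.013). Hormad1, a meiotic chromosome axis gene, had 43.7 and 6.15 CPM in the libraries labelled Ssrp1_KO, against 2.69 and 2.66 CPM in Ssrp1_Control libraries, and without Ssrp1_KO replicate 1 its log2 change of 3.21 was 1.14 (adjusted p = 0.22). It was also not called without either control library (0.3 and 0.093) or with the GC and length correction (1.31, adjusted p = 0.22). Sycp2, of the synaptonemal complex, had 32 and 52 counts in the libraries labelled Ssrp1_KO, against 1 and 6 in Ssrp1_Control libraries (log2 change 3.53, adjusted p = 0.043), a call that ended without either control library (adjusted p = 0.6 and 0.1) and with the GC and length correction (2.39, adjusted p = 0.17). Meioc was not called without Ssrp1_Control replicate 1 (2.14, adjusted p = 0.13). The number of germline genes called higher was 1 without Ssrp1_Control replicate 1, 3 without Ssrp1_Control replicate 2, 13 and 12 without Ssrp1_KO replicates 1 and 2, 3 with the GC and length correction, 13 with DESeq2, and 15 with no filter and with the spread from all 8 libraries. Germline genes called lower numbered 1 without Ssrp1_Control replicate 2, 2 without Ssrp1_KO replicate 2, 1 with DESeq2, 2 with no filter and 1 with the spread from all 8 libraries. Dazl was called higher in each of these, with a log2 change of 1.82 under the GC and length correction (adjusted p = 0.032).

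The germline changes of the 2 experiments differed for some genes. Of 36 tested in the joint fit, 9 had a lower change in the libraries labelled Ssrp1_KO than in Usp7_KD libraries and 0 a higher one. Of all genes tested, 0.393% were called lower and 0.610% higher. With DESeq2, and with a replicate block alone or beside the GC and length correction, 1 germline gene had a higher change in the knockout. Tdrd1, Taf7l and Tex101 had log2 changes of 0.62, 2.20 and 1.90 in the libraries labelled Ssrp1_KO against their controls. Of these edgeR called only Taf7l, a call that ended with the GC and length correction. These genes were picked for their large change in Usp7_KD libraries. The difference uses those libraries again, so its direction is not independent of the choice. The difference was -4.20 for Tdrd1 (adjusted p = 0.0078), -4.05 for Taf7l (adjusted p = 0.01) and -3.73 for Tex101 (adjusted p = 0.016). Tdrd1 and Taf7l were not called without Usp7_Control replicate 1 or Usp7_KD replicate 2, and Tex101 was not called when any 1 of the 4 Usp7 libraries or Ssrp1_Control replicate 1 was left out (adjusted p = 0.051 to 0.16 over these). For Dazl the difference was -1.35, which did not pass the test (adjusted p = 0.085). It passed in 6 of 14 alternatives, among them DESeq2 (-1.37, adjusted p = 0.021), no filter (0.048) and the GC and length correction (-2.39, adjusted p = 0.035). The number of lower differences was 0 without Usp7_Control replicate 1 or without Usp7_KD replicate 2, 4 without Ssrp1_Control replicate 1, 5 without Usp7_Control replicate 2 or Usp7_KD replicate 1, and 14, with 2 higher, with no filter.

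Markers of other cell states moved beside the germline genes, and their part in these results was not tested. Of all genes tested, 3.39% in the knockout and 2.36% in the knockdown were called higher by edgeR. An unadjusted edgeR p under 0.05 was reached by 18.2% and 16.7%, and 27.3% and 24.6% lay above both controls. The 9 matched markers of 2-cell-like cells, which such cultures hold in small numbers, summed to 433 and 1200 CPM in the libraries labelled Ssrp1_KO, against 50.3 and 142 CPM in Ssrp1_Control libraries. Of 8 tested, 7 rose by edgeR and 5 were called by DESeq2. In the knockdown these markers summed to 29.5 and 24.3 CPM in Usp7_KD libraries, against 4.48 and 4.58 CPM in Usp7_Control libraries. Of 5 tested, 5 rose by edgeR and 4 were called by DESeq2, and Tcstv1 was at 0 in all 4 libraries. The 6 primitive endoderm markers summed to 29.8 and 22.6 CPM in the libraries labelled Ssrp1_KO, against 3.87 and 6.97 CPM in their controls, with 1 of 5 tested, Dab2, called by edgeR and 2, Dab2 and Gata6, by DESeq2. All 5 were above both controls and had an unadjusted p under 0.05. They summed to 14.9 and 20.6 CPM in Usp7_KD libraries, against 9.37 and 11.4 CPM in theirs, with 0 of 5 called by edgeR or DESeq2 and 2 at an unadjusted p under 0.05. The 6 trophoblast markers summed to 75.7 and 104 CPM in the libraries labelled Ssrp1_KO, against 59.7 and 63.4 CPM in their controls, and 1 of 4 tested, Gata3, rose by edgeR, 0 by DESeq2. In Usp7_KD libraries they summed to 80.9 and 78 CPM, against 54 and 66.1 CPM in Usp7_Control libraries, with 0 of 5 called by edgeR or DESeq2 and 4 at an unadjusted p under 0.05. Log2 changes there were positive for 4 and negative for 1. Most of the sum in the knockdown was Tfap2c, at 56.5 and 48.5 CPM. Krt8 was lower there, at 8.04 and 11.5 CPM, against 16.6 and 18.6 CPM in Usp7_Control libraries. In the libraries labelled Ssrp1_KO, Krt8 had 15.9 and 44 CPM, against 14.8 and 12.1 CPM in their controls. Fibroblast markers summed to 14.1 and 36.9 CPM in the libraries labelled Ssrp1_KO, against 18.1 and 19.2 CPM in their controls, and to 9.09 and 12.1 CPM in Usp7_KD libraries, against 14.4 and 16.8 CPM in theirs. Most of that sum was Thy1 and Col1a1, and the defining Dcn and Lum had at most 2 counts in any library. Markers that are low in controls could pass the filter mainly through the knockout or knockdown libraries. Gata3 did so, with 14 and 15 counts in the libraries labelled Ssrp1_KO, against 0 and 1 in Ssrp1_Control libraries. Among the 2-cell-like markers Usp17la did so in the knockdown, with 28 and 19 counts in Usp7_KD libraries, against 3 and 2 in Usp7_Control libraries.

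**Figure D4:**
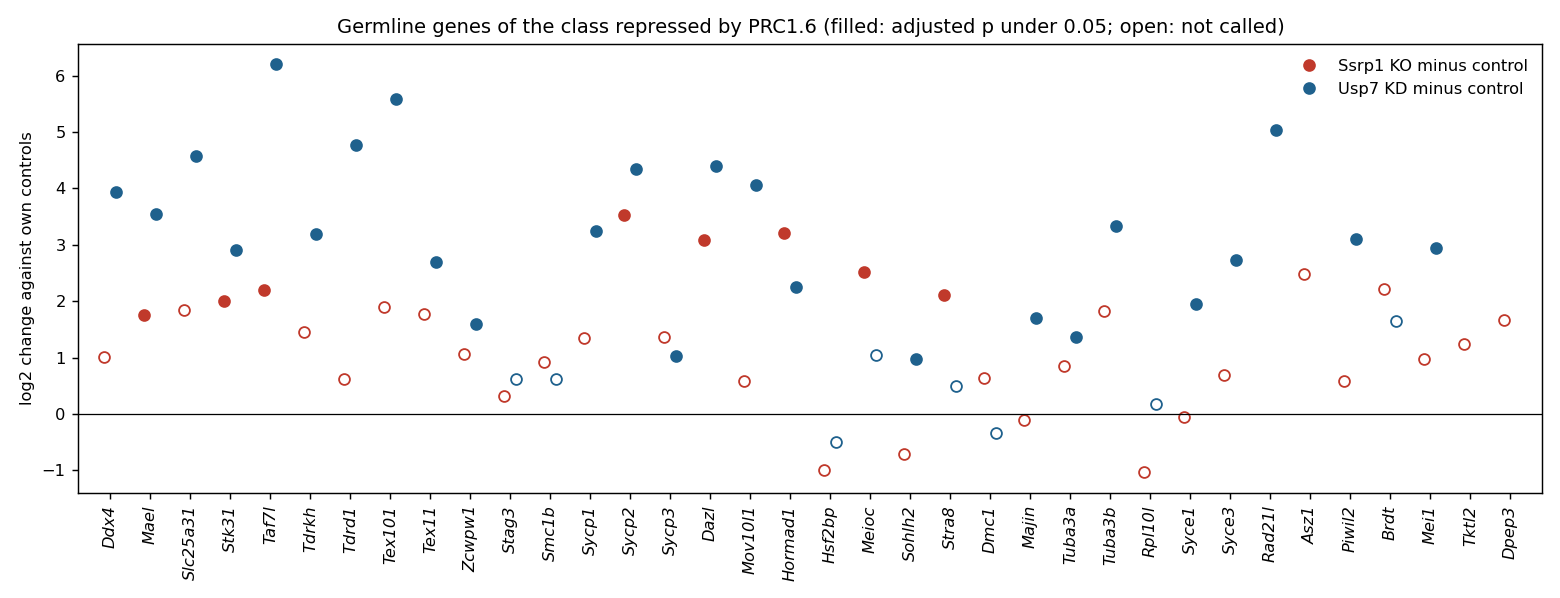
Log2 change of each listed germline gene that was tested in at least 1 experiment, in the libraries labelled Ssrp1_KO (red, left of each pair) and in Usp7_KD libraries (blue, right), each against its own controls. Filled points passed the edgeR test: 8 in the knockout and 25 in the knockdown, with Taf7l the highest at 6.20.

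Over the 8 libraries, the transcripts whose log2 CPM followed Mga most closely were Btaf1 (Pearson r = 0.998), Fam208a (0.997) and Cenpf (0.992), out of 14853 genes. For Pcgf6 they were Gm10608 (0.987), mt-Nd4 (0.984) and Zranb1 (0.975). These libraries come from 2 experiments that differ in level, depth and length or GC trend, so the values describe the libraries only. Among the subunits themselves, Rnf2 and Rybp were closest, with r = 0.96, followed by Mga with Rybp (0.89) and Mga with Rnf2 (0.85). E2f6 had its highest value with Mga (0.75) and, with its dimer partner Tfdp1, 0.34.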

How the data were processed

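RNA was sequenced from polyadenylated-RNA libraries of E14 cells. The authors deposited 2 tables of unnormalized read counts for each gene, 1 for the Ssrp1 and 1 for the Usp7 libraries. Their steps included cutadapt, HISAT2 and featureCounts with mm10, per the submitters' processing notes. Versions, annotation release, strand mode and multi-mapping rules were not given in the sources used here, so overlapping genes and near copies are uncertain. All 92 spike-in rows held 0 counts. GENCODE M21 (GRCm38, mm10) supplied the gene symbols, positions, exon lengths and GC contents; 67 identifiers had no symbol.

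Each experiment was tested on its 4 libraries with edgeR 4.0.16 in R 4.3.3 (filterByExpr, TMM, quasi-likelihood F test, Benjamini-Hochberg over all genes, called at an adjusted p under 0.05), and the difference between experiments in a joint fit. SE was derived from the fold change and F. Intervals use the fit's degrees of freedom. RPKM is CPM per kilobase of union exon. Alternatives included DESeq2 1.42.0. Replicates differed beyond sampling noise (chi-square per gene 11.8 to 79.3), so none were merged. The fits were tested on simulated data. Members and gene lists were chosen with earlier results of these data known. At most 4 called genes per list, direction and experiment, those with the largest change, were named, and for Mga and Pcgf6 the 3 most correlated genes. Mxi1, Klf4, Usp17la, Tfap2c and Krt8, and genes named as at or near 0 or as failing the filter, were chosen after their values were seen.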

Additional observations from a re-analysis of the deposited data

Results flagged for a closer look

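Taf7l, Tdrd1 and Tex101 were picked for their large change in Usp7_KD libraries, which the difference below uses again. The knockout change minus the knockdown change passed the edgeR test for E2f6 (-1.67 on the log2 scale, adjusted p = 0.031), Taf7l (-4.05, 0.01), Tdrd1 (-4.20, 0.0078) and Tex101 (-3.73, 0.016), each with a lower change in the libraries labelled Ssrp1_KO. It also did for the knockdown's own target Usp7 (1.53, adjusted p = 0.037), a call that ended in 7 of 14 alternatives: when GC and exon length were corrected for, or when 1 Ssrp1_Control library or 1 of the 4 Usp7 libraries was left out (adjusted p = 0.071 to 0.29).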

How the results depend on the processing

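Over the subunits, 101 of 110 alternative values in the knockout, 97 of 110 in the knockdown and 125 of 140 for the difference kept their direction and call. E2f6 stayed at 1.08 to 1.27 in the knockdown and at -1.79 to -1.50 for the difference. The number of subunits called in the knockdown was 0 with no filter, 2 with the replicate block (E2f6, and Mga at 0.69, adjusted p = 0.0097; with the GC and length correction too, 0.38 and 0.18) and 0 to 3 with 1 library left out; for the difference it was 0 to 1 with 1 left out. No subunit value that changed sign passed the threshold. With the GC and length correction, alone and with the replicate block, the values were -0.27 and -0.28 for Rnf2, -0.06 for Yaf2 and 0.09 for Wdr5 in the knockout, -0.06 and -0.05 for Pcgf6 and -0.02 for Rybp in the knockdown, and -0.38 for Rnf2 in the difference. With 1 library left out, ranges that crossed 0 were in the knockout Max (-0.23 to 0.51), Wdr5 (-0.17 to 0.14), Hdac1 (-0.36 to 0.08) and Tfdp2 (-0.22 to 0.05); in the knockdown Pcgf6 (-0.01 to 0.10), L3mbtl2 (-0.11 to 0.29), Max (-0.24 to 0.17), Tfdp1 (-0.01 to 0.19), Cbx3 (-0.27 to 0.03), Hdac1 (-0.25 to 0.07) and Tfdp2 (-0.33 to 0.04); for the difference Mga (-0.59 to 0.30), Max (-0.20 to 0.48) and Wdr5 (-0.07 to 0.32).

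The number of all genes called was 585 in the knockout, 476 in the knockdown and 171 for the difference. In the knockout it was 1497 with no filter, 1109 with DESeq2, 988 with the replicate block, 287 with the GC and length correction, 1360 with that correction and the block, 1314 with the spread from all libraries, and 20 (without Ssrp1_Control replicate 1) to 1884 with 1 left out. In the knockdown it was 100 with no filter, 1471 with the replicate block, 762 with the GC and length correction, 1796 with both, 78 with the spread from all libraries, and 42 (without Usp7_KD replicate 2) to 3770 (without Usp7_Control replicate 2). For the difference it was 945 with no filter, 672 with DESeq2, 525 with the replicate block, 364 with that block and the GC and length correction, and 1 to 1109 with 1 left out. With that correction and the block, 52.4% of calls in the knockout, 49.9% in the knockdown and 53.6% of the differences were higher. Germline calls in either direction in the knockout were 17 with no filter, 14 with DESeq2, 3 with the GC and length correction, 16 with the spread from all libraries and 1 to 14 with 1 left out; in the knockdown 16 with that spread and 15 to 30 with 1 left out; for the difference 16 with no filter, 15 with the GC and length correction and block, and 0 to 13 with 1 left out. The causes were not tested.

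Replicate numbers are shared by groups but nothing says that they pair samples. Deviations of the libraries numbered 1 from their group means correlated at 0.18 (Ssrp1) and 0.14 (Usp7). In groups of 2 the libraries numbered 2 mirror these deviations, so they add no further comparison. With 1 library left out, the lone sample is assumed to vary like the other groups.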
